A study of Mus musculus with 119 samples.

Results

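Cxcl9, Cxcl10, Cxcl11, and Ccl5 are chemokine genes that macrophages switch on downstream of interferon. Their mRNA was followed in bone marrow-derived macrophages (BMDMs) stimulated with LPS while the TPL-2 kinase pathway was blocked at different points. The genes were taken by symbol, and all 4 were found among the 18098 genes measured by RNA-seq in 119 libraries. All 4 passed the filter on low values in every comparison, so each was tested throughout, although only 99 of the 119 libraries held Cxcl11 at a linear value of 10 or more.

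BMDMs of mice labelled C57BL/6(NIMR) were grown from bone marrow in L-cell conditioned medium. LPS was added at 100 ng/ml for 0.5, 1, or 2 h, or not at all. The genotypes were WT, with 6 libraries at each time but 4 at 2 h, Map3k8[D270A], with 6 at each time, Elk1-/-Elk4-/-, with 4 at each time, and Nfkb1[SS/AA], with 6 at each time up to 1 h. WT cells were also given the MKK1/2 inhibitor PD0325901 at 0.1 µM 10 min before LPS, with 6 libraries at 0.5 h and 6 at 1 h. Without LPS, PD0325901 was left for 10, 40, or 70 min and its solvent DMSO for 10 min, with 3 libraries each. The RSK inhibitor RSKi47 was given to WT cells at 2 µM 10 min before LPS, with 4 libraries at each time but 3 at 0.5 h. The Map3k8[D270A] point mutation makes TPL-2 without kinase activity, and Nfkb1[SS/AA] changes the serines of p105 whose phosphorylation releases TPL-2, so neither lowers its own mRNA by design. The labels name a separate experiment for the Elk1-/-Elk4-/-, Nfkb1[SS/AA], PD0325901, and RSKi47 libraries, none of which has untreated WT cells of its own. In these comparisons with WT the genotype or inhibitor and the experiment cannot be told apart, and no library received LPS with DMSO.

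Cxcl9, Cxcl10, and Cxcl11 bind CXCR3, the receptor that draws activated T cells and NK cells to sites of inflammation. Ccl5 binds several CC chemokine receptors and attracts monocytes and T cells. In macrophages TLR4 signals through TRIF to the transcription factor IRF3, which with NF-κB induces Ifnb1, Cxcl10, and Ccl5. The secreted IFN-β then acts through its receptor and the JAK-STAT pathway on genes that carry an IFN-stimulated response element. Cxcl9 is best known as a target of IFN-γ.

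On build GRCm38.p6 the 3 CXCR3 ligands lay side by side on the minus strand of chromosome 5 within 42.0 kb. Cxcl9 stood at chr5:92321331-92328079 with 4 exons, Cxcl10 at chr5:92346638-92348889 with 4 exons, and Cxcl11 at chr5:92359544-92363296 with 5 exons. Ccl5 stood on chromosome 11, at chr11:83525778-83530518, also on the minus strand and with 3 exons. RefSeq lists Cxcl11 of this strain as a transcribed pseudogene, and it is known that C57BL/6 mice make no working Cxcl11 protein, so its values below speak of RNA alone.

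The 250 bases before the start of Cxcl10 and Cxcl9 are shown because these ligands of the same receptor had the earliest and the latest response to LPS below. RefSeq promoter sequences of build GRCm38.p6 matched 2 of the 4 genes, Cxcl9 and Cxcl10. They cover chr5:92348890-92349139 for Cxcl10 and chr5:92328080-92328329 for Cxcl9, and are written 5′ to 3′ on the minus strand. Capitals mark matches on either strand to the motifs searched. These were the IFN-stimulated response element (GAAA, any pair of bases, and GAAA again), the STAT site TTCNNNGAA, the AP-1 site TGANTCA, the TATA box TATAAA, a narrow NF-κB form (GGG, any pair of bases, and TTTCC) with the special case that has AC for the pair, and the NF-κB consensus with ambiguity codes, the last added after the sequences had been read.
Cxcl10: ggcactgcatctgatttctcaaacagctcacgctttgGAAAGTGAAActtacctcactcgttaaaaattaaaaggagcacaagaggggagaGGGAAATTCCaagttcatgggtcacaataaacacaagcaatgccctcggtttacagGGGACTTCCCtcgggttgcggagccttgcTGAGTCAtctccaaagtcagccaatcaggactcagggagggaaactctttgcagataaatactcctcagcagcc
Cxcl9: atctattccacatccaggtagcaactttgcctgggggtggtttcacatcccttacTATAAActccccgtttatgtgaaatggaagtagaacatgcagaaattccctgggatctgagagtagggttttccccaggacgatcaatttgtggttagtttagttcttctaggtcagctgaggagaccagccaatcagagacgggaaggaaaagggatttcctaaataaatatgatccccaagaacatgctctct

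In Cxcl10 the response element GAAAGTGAAA began 213 bases before the start. The NF-κB consensus matched at GGGAAATTCC, beginning 159 bases before the start, and at GGGACTTCCC, beginning 103 bases before it, and the AP-1 match TGAGTCA began 74 bases before it. In Cxcl9 the TATA box letters, beginning 195 bases before the start, were the only match. Of 32851 promoter windows of this length, 2.98% held the response element, 3.9% the NF-κB consensus, 6.75% the AP-1 letters, and 12.4% the TATA box letters. The STAT site letters were in 7.02% of windows and the narrow NF-κB form and its special case in 1.41% and 0.14%, with none of these in either printed window. The matches are descriptions of these windows and were not tested for binding.

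All 10 macrophage markers, among them Csf1r and Adgre1, stood at a linear value of 10 or more in every library, while all 12 T cell and NK cell markers, Ifng included, stayed under 10 in every library. Of 10 neutrophil markers 5, among them S100a8 and Ngp, stood at 10 or more in every library and 3, Ly6g, Elane, and Mpo, under 10 in every library, with sums of 532 to 2841. Of 6 B cell markers 5 and of 9 stromal and endothelial markers 4 were under 10 in every library, and 3 of 6 dendritic cell markers were. Some of these sums differed between arms. Elk1 ranged from 6.17 to 6.59 on the log2 scale in the Elk1-/-Elk4-/- libraries against 8.55 to 9.49 in all others, and Elk4 from 5.51 to 5.88 against 6.88 to 8.56. Values are the deposited log2 normalised expression. Their read depth is unknown, differences on this scale may be smaller than those of counts, and in bulk RNA fewer expressing cells and less RNA per cell cannot be told apart. A difference is called here when its adjusted p is under 0.05 and its size at least 1 on the log2 scale, that is 2-fold.

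**Figure D1:**
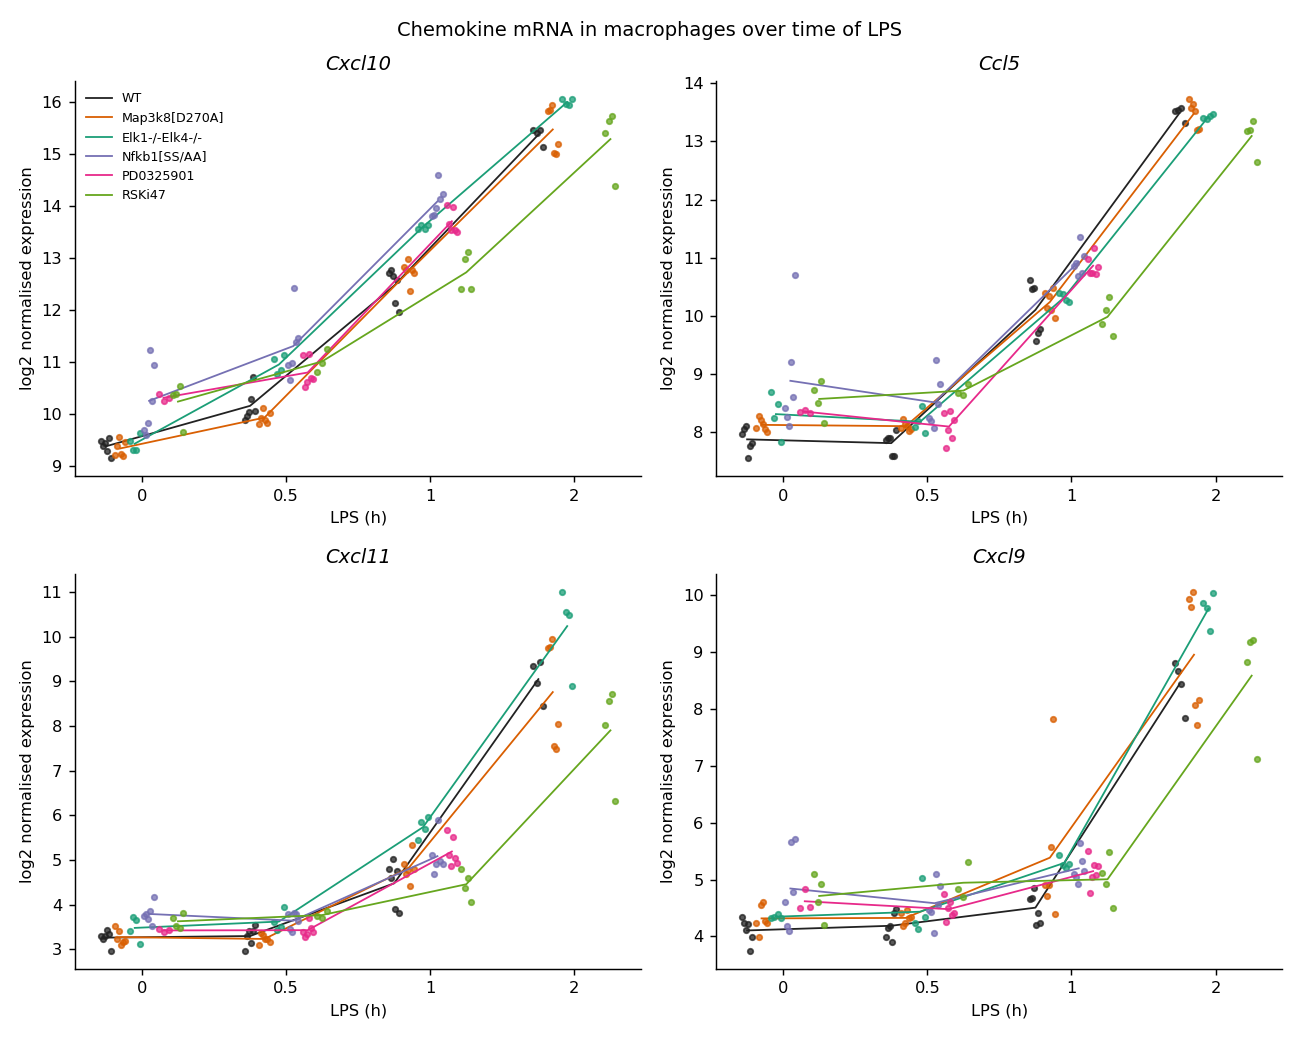
Log2 normalised expression of each gene (vertical axis) by hours of LPS (horizontal axis, evenly spaced), with 1 point per library and lines through group means, coloured by genotype or inhibitor; the PD0325901 points at 0 h are the libraries with 10 min of inhibitor. Cxcl10 rose first, and Cxcl9 lay low until 2 h in nearly all libraries.

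LPS raised all 4 genes in WT cells within 2 h, in an order that differed between them. Cxcl10 was the earliest, Ccl5 and Cxcl11 had risen by 1 h, and Cxcl9 rose only between 1 and 2 h. Of the 20 tests of the 4 genes in WT cells (3 times against 0 h and 2 steps between times), 14 were called, all upward. Among all genes tested, 0.623% were called higher at 0.5 h against 0 h, 3.2% at 1 h, and 7.72% at 2 h. From 0.5 to 1 h the share was 2.31% and from 1 to 2 h 4.42%. The summed dendritic cell markers of WT cells were 81.4 to 93.3 (linear) at 2 h against 32.9 to 35.2 at 0 h, and the stromal and endothelial markers 325 to 370 against 173 to 283. Their part was not tested.

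Unstimulated WT cells held Cxcl10 at 9.15 to 9.53 (median 9.41, n = 6). At 0.5 h the values were 9.88 to 10.71 (median 10.05), above every unstimulated library. The rise was 0.78 ± 0.13 (SE) on the log2 scale (adjusted p = 1.34e-05), short of 2-fold. At 1 h Cxcl10 stood at 11.96 to 12.76 (median 12.62), a rise of 3.09 ± 0.13 over 0 h (adjusted p = 1.42e-27). At 2 h the 4 libraries gave 15.47, 15.41, 15.47, and 15.14, a rise of 6.00 ± 0.15 (adjusted p = 1.05e-38), the 8th largest change of 11884 genes at that time.

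Ccl5 at 0.5 h stood at 7.59 to 8.03 (median 7.88) against 7.55 to 8.11 (median 7.88) at 0 h, a difference of -0.07 ± 0.13 (adjusted p = 0.84). At 1 h it stood at 9.57 to 10.61 (median 10.12), 2.23 ± 0.13 above 0 h (adjusted p = 5.32e-22). The 2 h libraries gave 13.52, 13.54, 13.58, and 13.32, a rise of 5.62 ± 0.14 (adjusted p = 4e-38). The groups at 1 and 2 h did not overlap with 0 h or with each other.

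Cxcl11 held 2.97 to 3.43 (median 3.30) without LPS and 2.96 to 3.55 (median 3.36) at 0.5 h. It reached 3.81 to 5.02 (median 4.67) at 1 h, a rise of 1.22 ± 0.29 (adjusted p = 0.000325). At 2 h it stood at 9.35, 8.97, 9.44, and 8.45, 5.79 ± 0.32 above 0 h (adjusted p = 4.77e-23). Its step of 4.57 ± 0.32 from 1 to 2 h was the 4th largest of all genes tested.

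Cxcl9 held 3.75 to 4.34 (median 4.16) at 0 h, 3.90 to 4.48 (median 4.17) at 0.5 h, and 4.20 to 4.86 (median 4.53) at 1 h. The differences from 0 h of 0.08 ± 0.32 (adjusted p = 0.929) and 0.40 ± 0.32 (adjusted p = 0.33) were within the spread. At 2 h the libraries gave 8.80, 8.67, 8.45, and 7.84, a rise of 4.34 ± 0.36 (adjusted p = 4.69e-16), nearly all of it after 1 h. WT replicate 7 was the lowest 2 h library for each of the 4 genes.

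Set against transcript length, Cxcl10 and Ccl5 were the abundant members. In unstimulated WT cells the mean level per kilobase of transcript was 9.25 (log2) for Cxcl10, 8.78 for Ccl5, 2.60 for Cxcl11, and 2.57 for Cxcl9. At 2 h it was 15.24 for Cxcl10, 14.40 for Ccl5, 8.39 for Cxcl11, and 6.91 for Cxcl9. Whether the deposited values already held a scaling by length is not stated, and without the division the order at 2 h was the same, while at 0 h Cxcl9, at 4.10, stood above Cxcl11, at 3.26.

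The genes around the chemokines in the route to interferon moved at different times in WT cells. Ifnb1, which encodes IFN-β, rose by 3.34 on the log2 scale at 1 h (adjusted p = 7.5e-30) and stood 3.62 above 0 h at 2 h. Irf1, a transcription factor induced by NF-κB and interferons, had risen by 1.78 at 0.5 h (adjusted p = 5.92e-23). Of 24 interferon-stimulated genes tested, 5 were called higher at 1 h and 21 at 2 h, with medians of 0.04 and 2.88 against 0.00 and -0.02 over all genes. Of 19 other chemokine genes tested, 10 were called higher at 1 h and 15 at 2 h.

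Cxcr3, the receptor of the CXC ligands, stood at 7.32 to 8.05 without LPS and was 0.46 lower at 2 h (difference -0.46, adjusted p = 0.00271), short of 2-fold. Ccr3 and Sdc4, a syndecan that binds chemokines on the cell surface, were the 2 of 6 tested receptor and carrier genes called higher at 2 h, by 1.14 and 3.38.

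In the other arms all called changes with LPS were upward too, but not every gene had one. Cxcl9 was called neither in Nfkb1[SS/AA] cells, where it differed from 0 h by 0.35 at 1 h (adjusted p = 0.349), nor in PD0325901 cells, where it differed by 0.46 (adjusted p = 0.314). In Map3k8[D270A] and Elk1-/-Elk4-/- cells 16 of 24 tests against 0 h were called, and in Nfkb1[SS/AA], RSKi47, and PD0325901 cells 13 of 28. The called shares upward over all genes at 0.5, 1, and 2 h were 0.446%, 2.82%, and 7.03% in Map3k8[D270A], 0.757%, 2.73%, and 7.31% in Elk1-/-Elk4-/-, and 0.618%, 2.35%, and 5.6% in RSKi47 cells. In Nfkb1[SS/AA] and PD0325901 cells they were 0.727% and 0.585% at 0.5 h and 2.61% and 2.99% at 1 h. Only in Elk1-/-Elk4-/- and Nfkb1[SS/AA] cells was the Cxcl10 rise at 0.5 h called, by 1.52 ± 0.16 (adjusted p = 1.1e-10) and 1.05 ± 0.19 (adjusted p = 7.28e-06), and the rise in Nfkb1[SS/AA] cells had an adjusted p of 0.0523 when its groups were fitted alone. The differences of these rises from that of WT, 0.74 (adjusted p = 0.335) and 0.27 (adjusted p = 1), were not past the threshold. The Cxcl9 rise at 1 h in Map3k8[D270A] cells, 1.07 ± 0.32, was called only with replicate 5 and fell to 0.57 (adjusted p = 0.0572) without it, and its adjusted p was 0.0839 when its groups were fitted alone.

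**Figure D2:**
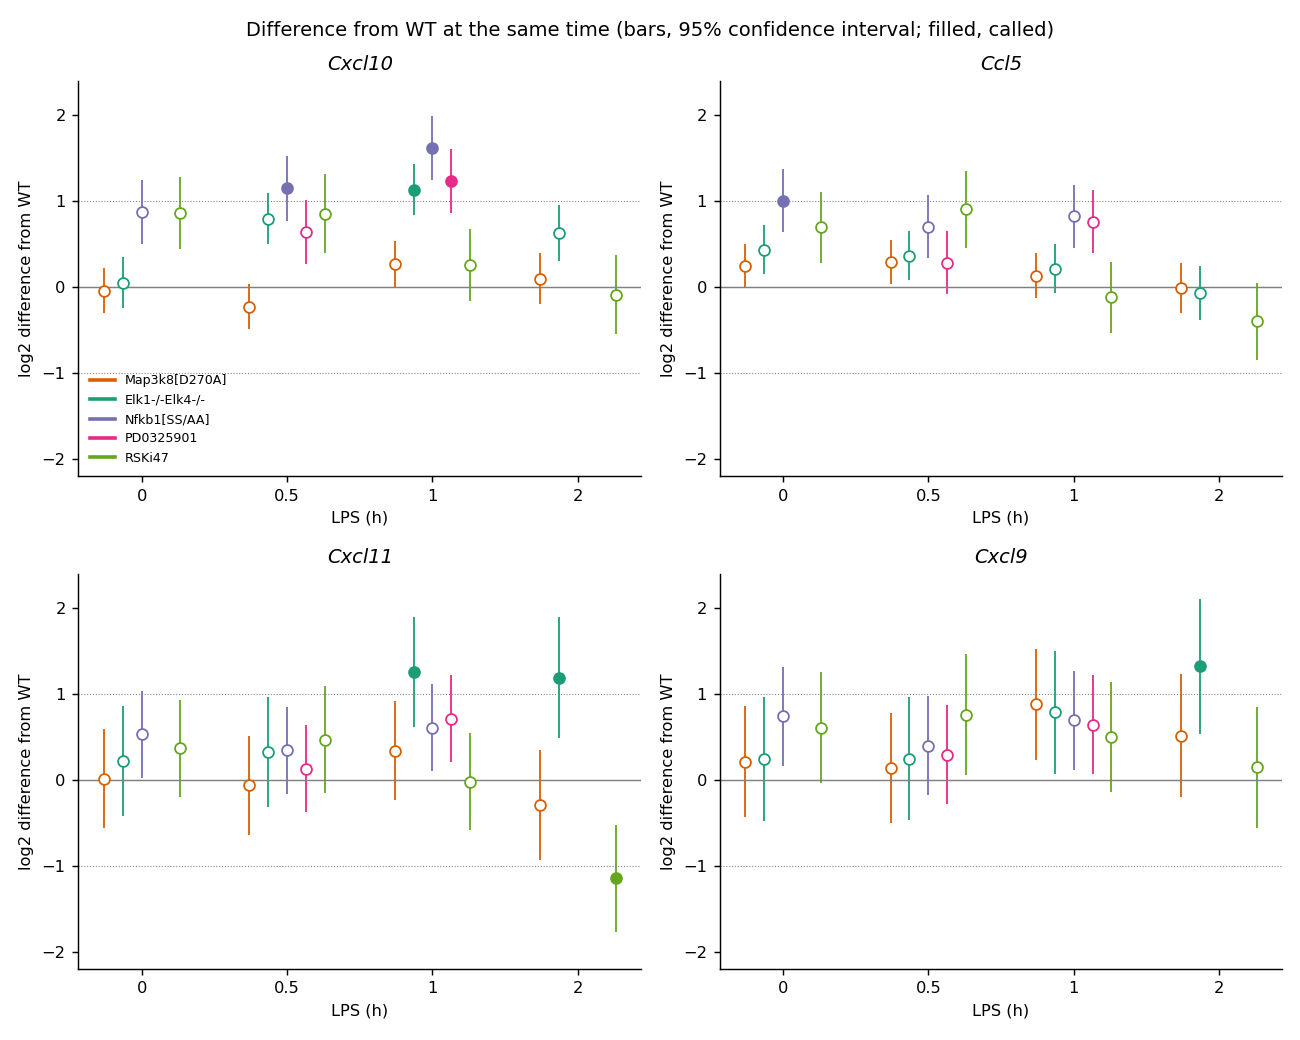
Log2 difference from WT at the same time of LPS (vertical axis) for each gene by hours of LPS (horizontal axis, evenly spaced), coloured by genotype or inhibitor. Bars are 95% confidence intervals from limma, filled points were called, and the dotted lines mark 2-fold; the called points are the 4 of Elk1-/-Elk4-/-, 3 of Nfkb1[SS/AA], 1 of PD0325901, and 1, downward, of RSKi47 cells.

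The comparison of Map3k8[D270A] with WT cells asks whether TPL-2 kinase activity sets the level of the chemokines. None of the 16 tests was called, and none had an adjusted p under 0.05. By limma 3 of the 16 had an unadjusted p under the threshold, which were those of Cxcl9 and Cxcl10 at 1 h and of Ccl5 at 0.5 h, all upward. Over all genes 0.0337%, 0.0337%, 0.0421%, and 0.118% were called higher at 0, 0.5, 1, and 2 h, and 0.0337%, 0.101%, 0.244%, and 0.547% lower. By adjusted p alone the shares higher were 0.606%, 0.48%, 5.14%, and 14.6%, and the shares lower 0.833%, 0.892%, 4.64%, and 13.1%.

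Cxcl10 in Map3k8[D270A] cells stood at 9.20 to 9.55 (median 9.30) at 0 h, 9.81 to 10.12 (median 9.90) at 0.5 h, and 12.37 to 12.98 (median 12.76) at 1 h. The differences from WT were -0.04, -0.23, and 0.27 with SE 0.13. At 2 h the difference was 0.10 ± 0.15 (adjusted p = 0.674, 95% confidence interval -0.20 to 0.40).

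For Ccl5 the differences were 0.25 ± 0.13, 0.29 ± 0.13, and 0.14 ± 0.13 at 0, 0.5, and 1 h and -0.01 ± 0.14 at 2 h (adjusted p = 0.974, interval -0.30 to 0.28). A 2-fold change lay outside the intervals of Cxcl10 and Ccl5 at 2 h. The intervals of Cxcl11, -0.93 to 0.35, and of Cxcl9, -0.20 to 1.23, were wider, and that of Cxcl9 took in a 2-fold rise. All these intervals rest on a spread pooled over the groups of the fit. In Map3k8[D270A] cells at 2 h the SD was 1.19 for Cxcl11, 1.08 for Cxcl9, and 0.45 for Cxcl10. The intervals of these genes may thus be too narrow, and a 2-fold fall of Cxcl11 is not excluded. At 2 h the summed dendritic cell markers were 54.0 to 74.6 (linear) in Map3k8[D270A] cells against 81.4 to 93.3 in WT, and the macrophage markers 430178 to 489243 against 492769 to 541369. Their part was not tested.

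The Map3k8[D270A] libraries split by replicate number. After 2 h, Map3k8[D270A] replicates 1, 2, and 3 held Cxcl9 at 9.93, 9.79, and 10.06, while replicates 4, 5, and 6 held 8.06, 7.72, and 8.16. For Cxcl11 the values were 9.76, 9.78, and 9.95 against 7.55, 7.48, and 8.04, and for Cxcl10 15.82, 15.85, and 15.94 against 15.02, 15.00, and 15.18. Ccl5 split less, with 13.73, 13.58, and 13.64 against 13.53, 13.20, and 13.21.

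WT cells showed this order by number in part. The 2 h library of WT replicate 7 was under replicates 4 to 6 for all 4 genes. At 1 h, WT replicates 7, 8, and 9 held Ccl5 at 9.57, 9.70, and 9.78 against 10.61, 10.47, and 10.48 in replicates 4, 5, and 6. The higher numbers were also lower throughout at 1 h for Cxcl10, at 11.96 to 12.58 against 12.65 to 12.76. So they were for Cxcl9, at 4.20 to 4.41 against 4.65 to 4.86, and for Ccl5 at 0 h, at 7.55 to 7.81 against 7.96 to 8.11. Cxcl10 at 0.5 h ran the other way, with 10.29, 10.71, and 10.05 against 9.88, 9.95, and 10.04. The sets overlapped for Cxcl11 at 1 h and for the remaining genes at 0 and 0.5 h. The labels give no batch for these numbers, and the split was known from an earlier look at these data, so it is a description.

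Within WT replicates 4 to 6 and Map3k8[D270A] replicates 1 to 3, the differences at 2 h were 1.29 for Cxcl9, 0.58 for Cxcl11, 0.43 for Cxcl10, and 0.10 for Ccl5. Within the higher numbers, where WT had a single 2 h library, they were 0.14, -0.76, -0.07, and -0.01. For Ccl5 at 1 h the sets had opposite signs, with -0.23 in the lower numbers and 0.50 in the higher ones, and the 0.14 over all libraries lies between them. As the sets were chosen with these values known and no label pairs them, the differences are given by size alone. Fits within the sets support nothing. Ifnb1 was higher in both, at 8.91 to 9.28 against 7.81 to 8.43 in the lower numbers and at 9.27 to 9.45 against 8.51 in the higher ones.

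**Figure D3:**
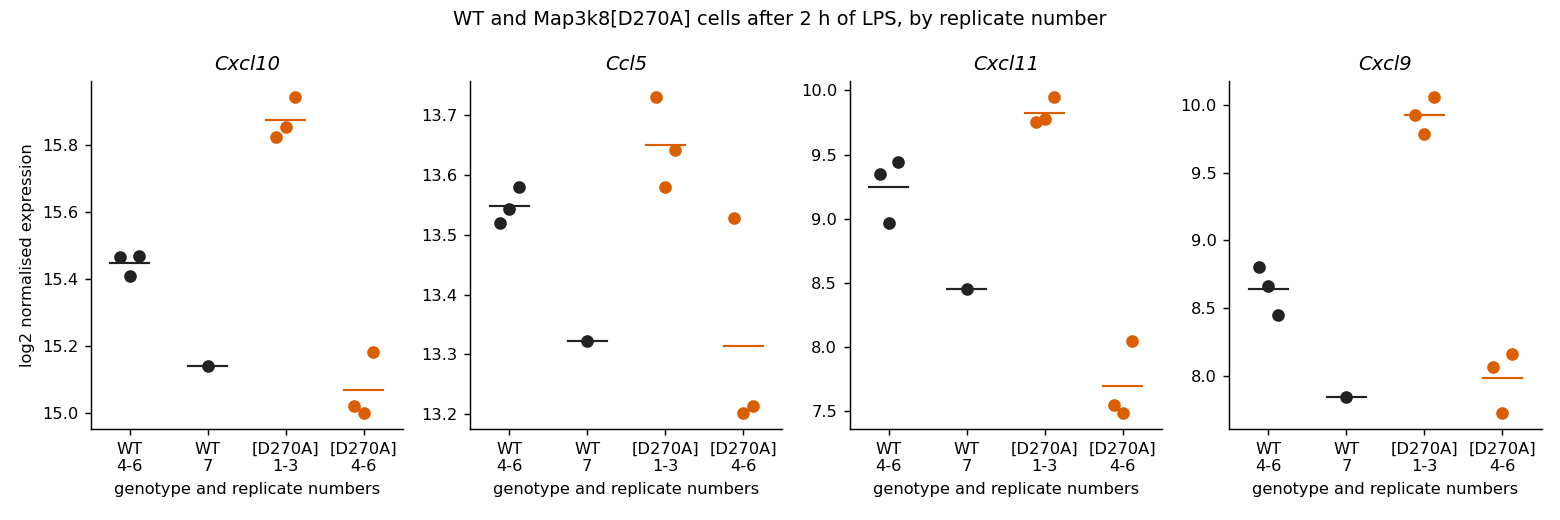
Log2 normalised expression after 2 h of LPS (vertical axis, a scale of its own for each gene) in WT and Map3k8[D270A] cells by replicate number (horizontal axis), with 1 point per library and a line at each mean. Map3k8[D270A] replicates 1 to 3 lie above every WT library for Cxcl10, Cxcl11, and Cxcl9, and replicates 4 to 6 lie below WT replicates 4 to 6.

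One Map3k8[D270A] library stood apart at 1 h. Replicate 5 held Cxcl9 at 7.83, while the other 5 libraries held 4.39 to 5.57. Chosen after their values were seen, the tested genes with the widest gaps above the other libraries of this group were Cxcl9, Nos2, the inducible nitric oxide synthase, at 7.25, or 2.25 above the next library, and Serpina3g, a serine protease inhibitor, at 6.33 against 3.75 to 4.29. The difference from WT in Cxcl9 at 1 h was 0.88 ± 0.32 (adjusted p = 0.0715) with this library and 0.39 without it. The summed T cell and NK cell markers of this library were 10.0 (linear), just under the lowest other library at 10.1, with Ifng under 10 in all.

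Around the members, 2 of 19 other chemokines were called lower in Map3k8[D270A] cells at 2 h and none higher. These were Cxcl2 and Cxcl3, ligands of the neutrophil receptor CXCR2, with differences of -1.06 (adjusted p = 1.09e-10) and -1.20 (adjusted p = 4.81e-08). Of 24 interferon-stimulated genes none was called, and 5 were higher by adjusted p alone, against 14.6% of all genes, and the median of the list was 0.13 against 0.01 over all genes. Ifnb1 was called higher at 1 h by 1.25 (adjusted p = 5.6e-11) and at 2 h by 1.00 (adjusted p = 1.5e-07).

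In Elk1-/-Elk4-/- cells, which lack 2 ternary complex factors downstream of ERK1/2, the 3 CXCR3 ligands were higher than in WT at 1 or 2 h of LPS, and Ccl5 was not called at any time. Of the 16 tests 4 were called, Cxcl10 at 1 h, Cxcl11 at 1 and 2 h, and Cxcl9 at 2 h, all higher, and 8 had an adjusted p under 0.05. Over all genes 0.774%, 0.724%, 0.867%, and 1.13% were called higher at 0, 0.5, 1, and 2 h, and 27.2%, 22.4%, 27.2%, and 27.7% were higher by adjusted p alone.

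Markers of other cells moved with this arm. The summed neutrophil markers were 1840.3 to 2229 (linear) without LPS against 585 to 1043 in WT, and 2388 to 2841 at 2 h against 584 to 812. Without LPS the B cell markers were 101 to 137 against 59.2 to 90.4, the dendritic cell markers 36.0 to 39.1 against 32.9 to 35.2, and the macrophage markers 344107 to 365065 against 410469 to 467130. At 2 h the stromal and endothelial markers were 457 to 542 against 325 to 370, the B cell markers 103 to 119 against 58.5 to 81.8, and the macrophage markers 421623 to 442428 against 492769 to 541369. The dendritic cell markers were the other way round at 2 h, at 68.6 to 74.0 against 81.4 to 93.3. Their part in the chemokine differences was not tested.

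Without LPS Cxcl10 was within the spread of WT, with 9.48, 9.30, 9.30, and 9.62 in the Elk1-/-Elk4-/- libraries (difference 0.05 ± 0.15, adjusted p = 0.797). At 0.5 h it stood at 11.06, 10.77, 10.85, and 11.12, above every WT library, with a difference of 0.79 ± 0.15 (adjusted p = 1.9e-05). At 1 h the values were 13.56, 13.64, 13.55, and 13.64, a difference of 1.13 ± 0.15 (adjusted p = 9.55e-09), and the lowest was above the highest WT library at 12.76. At 2 h they were 16.06, 15.95, 15.93, and 16.05, and the difference was 0.63 ± 0.16 (adjusted p = 0.0011).

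Cxcl11 at 1 h stood at 5.44, 5.85, 5.69, and 5.96, above every WT library, with a difference of 1.26 ± 0.32 (adjusted p = 0.000886). At 2 h replicates 1 to 3 held 11.01, 10.56, and 10.48 and replicate 4 held 8.90, within the WT range. The difference of 1.19 ± 0.35 (adjusted p = 0.00396) ran from 0.93 without replicate 1 to 1.63 without replicate 4, and was 0.99 without WT replicate 7.

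Cxcl9 at 2 h stood at 9.87, 9.78, 9.36, and 10.03, above all 4 WT libraries, and differed by 1.32 ± 0.39 (adjusted p = 0.00401). At 1 h it differed by 0.79 ± 0.36 (adjusted p = 0.0589) and the groups did not overlap. Ccl5 differed by 0.43 ± 0.14 at 0 h (adjusted p = 0.00925) and 0.37 ± 0.14 at 0.5 h (adjusted p = 0.0319). At 2 h Ccl5 stood at 13.41, 13.39, 13.44, and 13.47, and the difference of -0.06 ± 0.16 had an interval of -0.38 to 0.25.

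Some genes of the interferon response were higher in these cells from the start. Of 24 interferon-stimulated genes 8 were called higher in unstimulated cells, and 10, 11, and 7 after 0.5, 1, and 2 h of LPS, with none lower. The medians over the list ran from 0.69 to 0.93 against 0.00 to 0.02 over all genes. Irf7, the interferon regulatory factor that amplifies the type I response, was higher by 1.54 at 0 h (adjusted p = 1.1e-09) and 1.26 at 2 h. Ifnb1 was higher by 1.73 at 1 h (adjusted p = 2e-14), and Cxcr3 by 0.84 at 0 h (adjusted p = 1.28e-06), short of 2-fold.

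In Nfkb1[SS/AA] cells all differences of the 4 genes from WT were upward, and 3 of 12 tests were called. By adjusted p alone 9 of 12 passed, but of these Cxcl9 without LPS went from 0.74 (adjusted p = 0.0417) to 0.31 (adjusted p = 0.515) without replicates 4 and 6, and Cxcl9 and Cxcl11 at 1 h no longer passed either. Over all genes 0.359%, 0.351%, and 0.501% were called higher at 0, 0.5, and 1 h, and 16.9%, 16.7%, and 20.5% were higher by adjusted p alone.

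Without LPS the Nfkb1[SS/AA] libraries were spread widely. Cxcl10 ran from 9.59 to 11.22 (median 10.04), with every library above the highest WT value of 9.53, and differed by 0.88 ± 0.19 (adjusted p = 0.000129), or by 0.46 (adjusted p = 0.0343) without replicates 4 and 6. Ccl5 ran from 8.11 to 10.70 (median 8.51) and differed by 1.01 ± 0.18 (adjusted p = 6.99e-06, or 0.0538 when its groups were fitted alone). Replicates 6 and 4 were the highest for Ccl5, at 10.70 and 9.20, and for Cxcl9, at 5.72 and 5.66, and replicates 4 and 6 for Cxcl10, at 11.22 and 10.93.

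The Ccl5 difference was 0.64 without replicate 6 and 0.47 (adjusted p = 0.007) without both. It also fell just under 2-fold, to between 0.94 and 0.99, without Nfkb1[SS/AA] replicate 4 or WT replicate 7, 8, or 9. In replicate 6 the summed stromal and endothelial markers were 344 (linear) against 217 to 250 in the other libraries of the group, and its dendritic cell markers 39.7 against at most 39.6, while its T cell and NK cell markers, at 10.7, lay within the range of the others. Their part in the result was not tested.

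At 0.5 h Cxcl10 stood at 10.65 to 12.42 (median 11.18) and differed by 1.15 ± 0.19 (adjusted p = 5.8e-07), or by 0.93 without replicate 4 and 0.83 without replicates 4 and 6. At 1 h it stood at 13.80 to 14.60 (median 14.04), above every WT library, with a difference of 1.62 ± 0.19 (adjusted p = 6.52e-12) that was 1.46 without replicates 4 and 6. Ccl5 at 1 h ran from 10.68 to 11.36 (median 10.88), above every WT library, a difference of 0.83 ± 0.18 (adjusted p = 0.000133). At 1 h the summed macrophage markers were 493795 to 629173 (linear) in Nfkb1[SS/AA] cells against 447826 to 506336 in WT, and the dendritic cell and neutrophil markers had medians of 52.0 against 41.8 and 1012 against 652. Their part in the differences was not tested.

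Cxcl9 and Cxcl11 differed by 0.69 ± 0.29 (adjusted p = 0.0459) and 0.61 ± 0.26 (adjusted p = 0.0463) at 1 h, and by 0.59 (adjusted p = 0.131) and 0.45 (adjusted p = 0.221) without replicates 4 and 6. Ifnb1 was called higher at 0.5 h by 1.45 (adjusted p = 1.42e-06) and at 1 h by 3.26 (adjusted p = 5.68e-21). Of 24 interferon-stimulated genes 5 were called higher at 1 h, with a median of 0.56 against -0.01 over all genes.

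**Figure D4:**
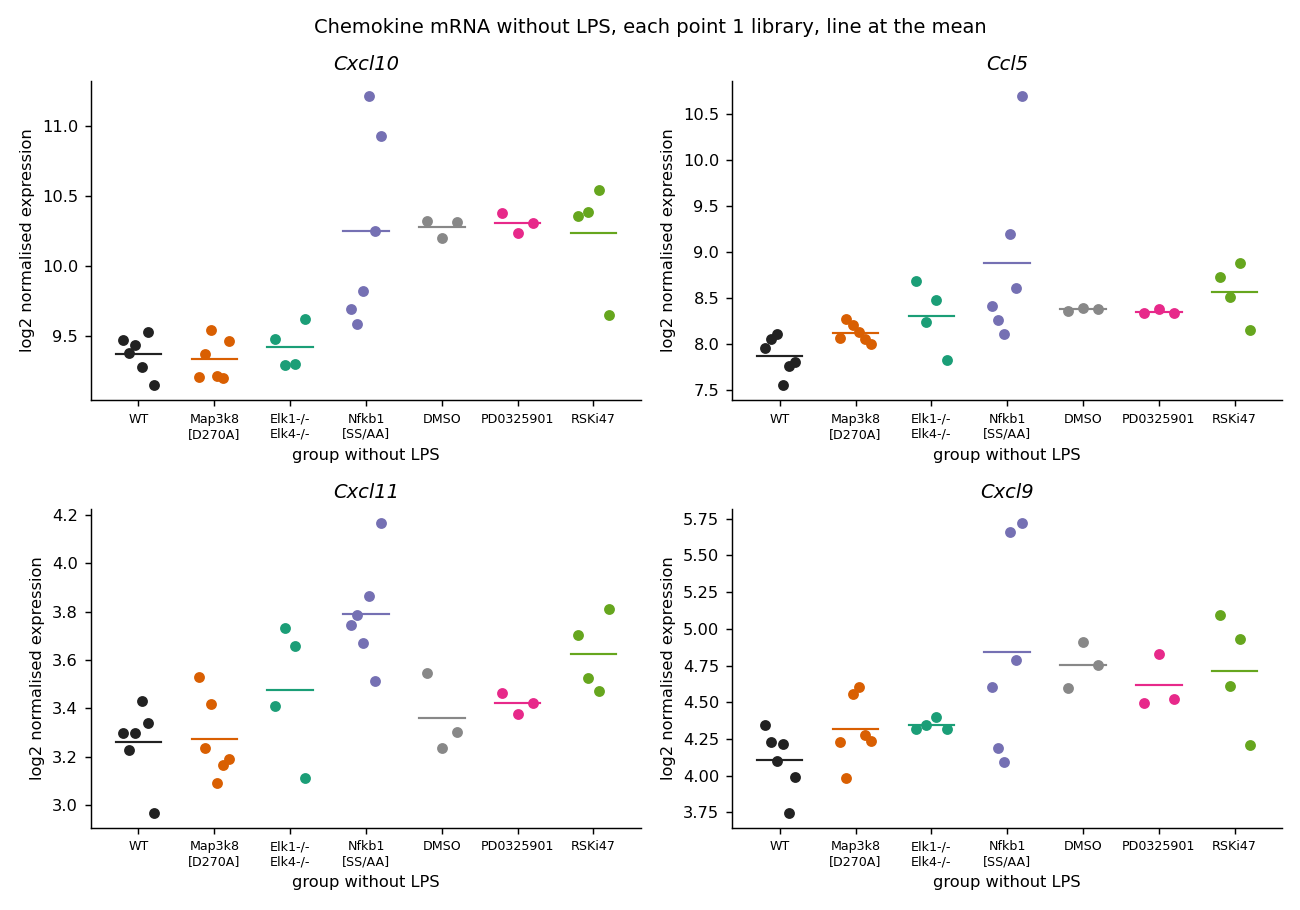
Log2 normalised expression without LPS (vertical axis, a scale of its own for each gene) by group (horizontal axis), with DMSO and PD0325901 at 10 min and RSKi47 at 10 min, 1 point per library and a line at each mean. Every Nfkb1[SS/AA], DMSO, PD0325901, and RSKi47 library held Cxcl10 above the highest WT library at 9.53.

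PD0325901 blocks MKK1/2 and so the activation of ERK1/2. Against WT, 1 of the 8 tests after LPS was called, Cxcl10 at 1 h, and 4 had an adjusted p under 0.05. Over all genes 0.217% and 0.326% were called higher at 0.5 and 1 h, and 14.5% and 16.4% were higher by adjusted p alone. The libraries after LPS may not be independent. By root mean square distance, the closest at 0.5 h were replicates 3 and 6 (0.112), 1 and 4 (0.124), and 2 and 5 (0.125). At 1 h they were 2 and 5 (0.117) and 3 and 6 (0.125), with 1 and 4 at 0.131. The labels do not say whether these pairs share a culture. If they do, the p-values of this arm are too small. Cxcl10 at 1 h stood at 13.50 to 14.01 (median 13.60), above every WT library, with a difference of 1.24 ± 0.19 (adjusted p = 8.39e-08). Ccl5 at 1 h, at 10.71 to 11.17 (median 10.79), was also above every WT library, with a difference of 0.76 ± 0.18 (adjusted p = 0.000649). Cxcl11 differed by 0.71 ± 0.26 (adjusted p = 0.0223) and Cxcl9 by 0.64 ± 0.29 (adjusted p = 0.0742). In the PD0325901 libraries at 1 h the summed stromal and endothelial markers were 289 to 392 (linear) against 155 to 270 in WT, the neutrophil markers had a median of 1208 against 652, and the dendritic cell markers one of 51.8 against 41.8. Their part in the differences was not tested. Ifnb1 at 1 h was higher than in WT by 3.62 (adjusted p = 3.78e-23).

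The DMSO libraries, which had neither inhibitor nor LPS, already differed from unstimulated WT cells. They held Cxcl10 at 10.32, 10.20, and 10.31, a difference of 0.90 ± 0.23 (adjusted p = 0.00229), and Ccl5 at 8.36, 8.39, and 8.38, a difference of 0.50 ± 0.23 (adjusted p = 0.0949). Of the 4 genes none was called, against 0.284% of all genes called higher and 0.1% lower, and Cxcl10 alone passed by adjusted p, against 12.5% of all genes higher. In the same comparison 8 of 24 interferon-stimulated genes were called higher with a median of 0.81. The summed neutrophil markers of the DMSO libraries were 1075 to 1234 (linear) against 585 to 1043 in WT, and the stromal and endothelial markers 402 to 435 against 173 to 283. Their part was not tested, and solvent and experiment cannot be told apart in this difference.

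Within that experiment no difference between PD0325901 alone and DMSO was detectable in the 4 genes. After 10 min the differences from DMSO were 0.03 ± 0.27 for Cxcl10, -0.03 ± 0.26 for Ccl5, 0.06 ± 0.36 for Cxcl11, and -0.14 ± 0.41 for Cxcl9, with adjusted p = 1 for each and the smallest unadjusted p at 0.738. Of all genes tested by limma 0% were called in this comparison. From 10 to 70 min of PD0325901 alone Cxcl10 went from 10.38, 10.24, and 10.31 to 10.04, 10.14, and 10.20, a difference of -0.18 ± 0.27 (adjusted p = 0.82) with groups that did not overlap. None of the 4 genes was called against 10 min at 40 or 70 min, where 0.242% and 0.242% of all genes were called higher and 0.0418% and 0.1% lower.

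With RSKi47 Cxcl10 and Ccl5 were above WT without LPS and at 0.5 h by adjusted p alone, short of 2-fold. The differences of Cxcl9 at these times, 0.61 (adjusted p = 0.108) and 0.76 (adjusted p = 0.0698), and of Cxcl11, 0.37 (adjusted p = 0.284) and 0.47 (adjusted p = 0.212), did not pass. Of 16 tests against WT 1 was called, Cxcl11 at 2 h, which was lower, and 4 more passed by adjusted p alone, all higher and at 0 or 0.5 h. Over all genes 0.994%, 0.911%, 0.977%, and 0.894% were called higher at 0, 0.5, 1, and 2 h, and 0.351%, 0.384%, 0.576%, and 1.1% lower. By adjusted p alone 26.8%, 23.7%, 26.5%, and 27.5% were higher.

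Unstimulated RSKi47 libraries held Cxcl10 at 10.36, 10.39, 10.54, and 9.65, all above WT, a difference of 0.86 ± 0.21 (adjusted p = 0.000358) that was 1.05 without replicate 4 and then called (adjusted p = 2.39e-05). Ccl5 stood at 8.73, 8.51, 8.89, and 8.16, also above WT, a difference of 0.70 ± 0.21 (adjusted p = 0.0031). At 0.5 h the differences were 0.85 ± 0.23 for Cxcl10 (adjusted p = 0.00138) and 0.90 ± 0.23 for Ccl5 (adjusted p = 0.000554). Without LPS the summed neutrophil markers were 1064 to 1532 (linear) with RSKi47 against 585 to 1043 in WT, the stromal and endothelial markers 423 to 968 against 173 to 283, and the B cell markers 43.9 to 47.6 against 59.2 to 90.4. Their part was not tested.

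At 2 h Cxcl11 stood at 8.02, 8.55, 8.71, and 6.33, against 8.45 to 9.44 in WT. Its difference of -1.15 ± 0.31 (adjusted p = 0.00126) was -0.62 (adjusted p = 0.0836) without replicate 4. This library was the lowest of the 4 for every member, with Cxcl10 at 14.37, Cxcl9 at 7.12, and Ccl5 at 12.64, against 15.40 to 15.73, 8.83 to 9.21, and 13.18 to 13.35 in the others. Its summed stromal and endothelial markers were 384 (linear) against 605 to 699, and its dendritic cell markers 70.4 against 81.0 to 85.5. Over all 4 libraries the neutrophil markers were 1113 to 1643 against 584 to 812 in WT, the stromal and endothelial markers 384 to 699 against 325 to 370, and the B cell markers 40.3 to 51.1 against 58.5 to 81.8, and their part in the result was not tested.

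Ifnb1 was higher than in WT at 1 h by 1.33 (adjusted p = 3.1e-05) and at 2 h by 2.37 (adjusted p = 1.23e-10) while among the members Cxcl11 at 2 h was the one call, and it was lower. Of 19 other chemokines 5 were called lower at 1 h and 6 at 2 h, with none higher, and of 24 interferon-stimulated genes none was called at 2 h.

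Since offsets between experiments that are alike at all times cancel in it, the LPS response of each arm was set against that of WT. Of 52 such differences 3 were called, and 4 had an adjusted p under 0.05. Over all genes 0.0421% were called higher for Elk1-/-Elk4-/- cells at 1 h and 0.936% lower for RSKi47 cells at 2 h, with 10.4% lower by adjusted p alone. Over the 13 contrasts of this kind at most 0.16% of genes were called higher.

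The response of Cxcl10 at 1 h was larger in Elk1-/-Elk4-/- cells, by 1.08 ± 0.21 (adjusted p = 0.00117), with rises of 4.17 and 3.09. At 2 h the difference was 0.58 ± 0.22 (adjusted p = 0.0624). In Nfkb1[SS/AA] cells the difference of Cxcl10 responses at 1 h was 0.75 ± 0.27 (adjusted p = 0.0814), and 0.997 (adjusted p = 0.00316), just under 2-fold, without replicates 4 and 6. With PD0325901 it was 0.49 ± 0.30 (adjusted p = 0.51).

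With RSKi47 the responses at 2 h were smaller than in WT for Cxcl11, by a difference of -1.51 ± 0.42 (adjusted p = 0.00513), Ccl5, by -1.09 ± 0.31 (adjusted p = 0.00523), and Cxcl10, by -0.95 ± 0.31 (adjusted p = 0.0204). Without replicate 4 the Cxcl11 difference was -0.93 (adjusted p = 0.123). That of Ccl5 stayed between -1.15 and -1.07 with each replicate number left out in turn, at all its times together. RSKi47 replicate 4 was the lowest for Ccl5 at 0 h, at 8.16, and at 2 h, at 12.64. Leaving out a library at a single time was not run. At 2 h itself the difference from WT was -0.09 ± 0.23 (adjusted p = 0.776) for Cxcl10 and -0.40 ± 0.23 (adjusted p = 0.134) for Ccl5, after higher values of both at 0 h.

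In Map3k8[D270A] cells none of the 12 differences of responses passed, and at 2 h they were 0.14 ± 0.20 for Cxcl10, -0.26 ± 0.19 for Ccl5, -0.30 ± 0.43 for Cxcl11, and 0.30 ± 0.48 for Cxcl9. The smallest adjusted p among these 4 was 0.424.

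**Figure D5:**
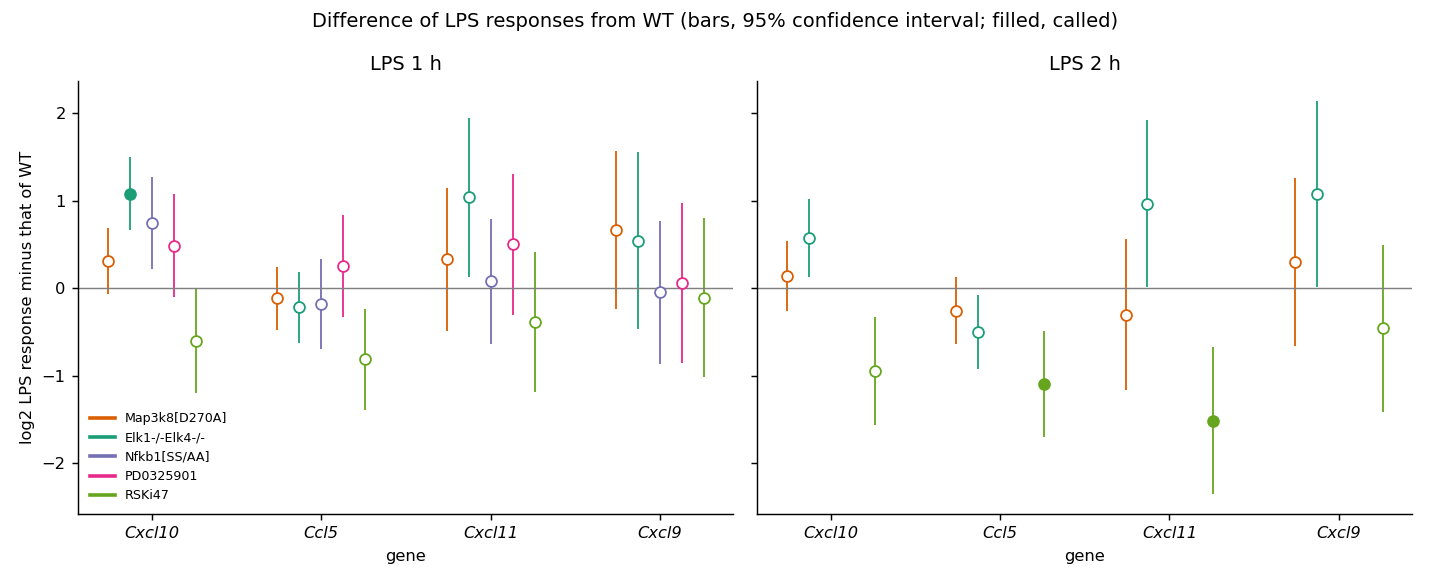
LPS response of each arm minus that of WT (vertical axis, log2) for each gene (horizontal axis) at 1 h (left) and 2 h (right), coloured by genotype or inhibitor, with 95% confidence intervals from limma and called values filled. The filled points are Cxcl10 of Elk1-/-Elk4-/- cells at 1 h, at 1.08, and Ccl5 and Cxcl11 of RSKi47 cells at 2 h, at -1.09 and -1.51.

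The arms were also compared with Map3k8[D270A] cells directly. Of 52 tests 5 were called, all higher than in Map3k8[D270A] cells. Of 52, 1 passed by adjusted p in the other direction, Cxcl11 with RSKi47 at 2 h (-0.86 ± 0.29, adjusted p = 0.00881), which was called without any one of Map3k8[D270A] replicates 4, 5, and 6 or RSKi47 replicates 2 and 3. The calls stood against 0.959%, 0.576%, and 1.23% of all genes called higher at 0.5 h in Elk1-/-Elk4-/-, Nfkb1[SS/AA], and RSKi47 cells, 0.61% at 1 h in Nfkb1[SS/AA] cells, and 1.06% at 2 h in Elk1-/-Elk4-/- cells. Cxcl10 accounted for 4 of them, at 0.5 h in Elk1-/-Elk4-/- cells (1.02 ± 0.15, adjusted p = 1.42e-07), in Nfkb1[SS/AA] cells (1.38 ± 0.19, adjusted p = 2.83e-09), and with RSKi47 (1.08 ± 0.23, adjusted p = 4.81e-05), and at 1 h in Nfkb1[SS/AA] cells (1.35 ± 0.19, adjusted p = 2.99e-09). The fifth was Cxcl11 at 2 h in Elk1-/-Elk4-/- cells (1.48 ± 0.32, adjusted p = 0.000134, or 0.0827 when its groups were fitted alone). The Cxcl10 difference of Elk1-/-Elk4-/- cells fell under 2-fold without Map3k8[D270A] replicate 1 (0.997) or Elk1-/-Elk4-/- replicate 1 (0.985) or 4 (0.963). That of RSKi47 did so without RSKi47 replicate 3 (0.964) and with the replicate block as a random term (0.962).

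Cxcl10 set the PD0325901 and Map3k8[D270A] cells apart at 1 h by 0.97 ± 0.19 (adjusted p = 1.92e-05), just under 2-fold. Inhibitor, genotype, and experiment cannot be told apart in this difference.

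Ranked over the 25 groups, the 2 h groups were on top for every member. For Cxcl10 the highest mean was 16.00 in Elk1-/-Elk4-/- cells at 2 h, followed by Map3k8[D270A], WT, and RSKi47 cells at 2 h, which did not differ from one another beyond the larger of their SDs. The next were Nfkb1[SS/AA] (14.09), PD0325901 (13.70), and Elk1-/-Elk4-/- (13.60) cells at 1 h, and a gap of 0.86 led down to Map3k8[D270A] (12.73) and the other groups at 1 h. Of the 24 steps between neighbours in the order 8 exceeded the larger SD for Cxcl10.

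For Ccl5 WT (13.49), Map3k8[D270A] (13.48), and Elk1-/-Elk4-/- (13.43) cells at 2 h lay within the larger of their SDs, with RSKi47 cells at 13.09 below them by more than that, and 5 of 24 steps exceeded it. For Cxcl11 Elk1-/-Elk4-/- cells at 2 h (10.24) led WT (9.05) beyond the spread, and 4 steps exceeded it. For Cxcl9 a single step did, that of 3.06 between the 2 h groups, the lowest being WT at 8.44, and Map3k8[D270A] cells at 1 h (5.38).

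The patterns of the 4 genes over the 25 group means were alike, with Pearson correlations between 0.855 (Cxcl9 and Cxcl10) and 0.973 (Cxcl9 and Cxcl11). The points share libraries, experiments, and the rise with time, so these are descriptions. The genes most like Cxcl9 were Nos2 (0.992), Pvrl2, Abtb2, March5, and Kdm4a (0.984). Those most like Cxcl10 were Ifi205 (0.983), an interferon-inducible gene, Ripk2, the kinase of NOD receptors, Slamf7, Irg1, the enzyme that makes itaconate, and Arid5a (0.978).

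For Ccl5 they included Gbp5 (0.989), an interferon-inducible guanylate-binding protein, Rab12, Mul1, and Pik3r5 (0.987). For Cxcl11 they were Fbxw11 (0.987), Ift57, Fas, a death receptor, Rnf14, and Dirc2 (0.986). By Spearman correlation 1 of the 5 was kept for Cxcl9 (Nos2), 3 for Cxcl10, 1 for Ccl5, and 0 for Cxcl11.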

How the data were processed

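RNA-seq of 119 libraries in 25 groups was used. Per the labels and methods, single-end, strand-specific reads were aligned to mm10 and quantified per RefSeq gene. The submitters' processing notes name STAR 2.5.1b, RSEM 1.2.29, and DESeq2 1.10.1, and the methods text names other versions of STAR and RSEM. The authors deposited log2 values normalised across libraries, whose transformation is not stated, from -2.40 to 19.81. A single value above 25 was treated as missing. Counts cannot be read back, so depth is unknown, no interval from counts was given, and no pseudocount was needed. Groups came from the labels, which call the libraries replicates without naming animals, so p-values measure the spread between these libraries.

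limma 3.58.1 (R 4.3.3) fitted 1 mean per group, with Benjamini-Hochberg adjustment over all genes tested. The comparisons among WT, Map3k8[D270A], and Elk1-/-Elk4-/- cells used their 62 libraries and the 11884 genes that reached 10 on the linear scale in 4 of them. All others used 119 libraries and 11971 genes, where 3 such libraries were enough. The fit was tested on simulated data with independent libraries and 1 spread per gene. In the real data libraries of the same number were correlated (0.361 and 0.326 in the smaller and the larger fit). The simulation thus cannot show that the p-values hold here. Responses to PD0325901 with LPS were taken against PD0325901 alone for the matched time. Same-numbered libraries of an arm deviated together in WT cells, in 30 of 30 pairs with correlations of 0.164 to 0.79, and in Nfkb1[SS/AA] cells, in 18 of 18 with 0.145 to 0.672, so the numbers were read as cultures there. Fitting them as a block changed no call within an arm.

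The members, lists, and tests were chosen with earlier results of these data known. Genes other than the members were named by rule: Ifnb1, Irf1, Irf7, tested receptors and carriers, up to 3 called genes in each direction of the interferon-stimulated and chemokine lists in Map3k8[D270A] cells at 2 h, and the 5 genes most like each member in Pearson correlation. Some genes this rule covers are not reported here. Alternatives were other filters, a variance trend, centring of libraries, replicate blocks, fits of single contrasts, other thresholds, and leaving out each replicate. Positions and promoter sequences came from RefSeq tables of GRCm38.p6, and strands, exons, and lengths from GENCODE transcripts matched to RefSeq. Python 3.11.15 and matplotlib 3.10.9 were used.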

Additional observations from a re-analysis of the deposited data

Results flagged for a closer look

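A library lay far from the others of its group in 2 of the 80 combinations of a gene with a group of 4 or more libraries, where chance alone gives about 1 in 20. Cxcl9 in Map3k8[D270A] replicate 5 at 1 h stood at 7.83 against 4.39 to 5.57 in the other 5 libraries. Cxcl11 in Nfkb1[SS/AA] replicate 4 at 1 h stood at 5.90 against 4.70 to 5.11. In this library the summed dendritic cell markers were 60.0 (linear) against at most 53.3 in the other libraries, the stromal and endothelial markers 263 against at most 236, the neutrophil markers 1663 against at most 1611, and the macrophage markers 629173 against at most 596224. Its B cell markers, at 60.5, and T cell and NK cell markers, at 10.6, were the lowest, and the part of these in the value was not tested. Of the LPS responses 4 differed from those of WT by limma at an adjusted p under 0.05. That of Cxcl10 at 1 h in Elk1-/-Elk4-/- cells was larger by 1.08 on the log2 scale, and the responses at 2 h with RSKi47 were smaller, with differences of -1.51 for Cxcl11, -1.09 for Ccl5, and -0.95 for Cxcl10.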

How the results depend on the processing

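No direction of a called difference reversed under any alternative run. A lower fold threshold (0.693 in place of 1) moved the calls against WT from 3 to 7 in Nfkb1[SS/AA] cells, from 1 to 3 with PD0325901, and from 1 to 5 with RSKi47, from 5 to 13 against Map3k8[D270A] cells, and from 0 to 1 without LPS. With adjusted p alone these were 9, 4, 5, 17, and 1, and Elk1-/-Elk4-/- cells had 8 in place of 4. The lower fold threshold also added calls of Cxcl10 at 0.5 h in Elk1-/-Elk4-/- cells against WT (0.79) and of its response at 2 h with RSKi47 (-0.95). Among the rises with LPS it added Cxcl10 at 0.5 h in WT cells (0.78) and Cxcl11 at 1 h with RSKi47 (0.83). Fitting the groups of each contrast alone left 0 calls with RSKi47, where Cxcl11 at 2 h had an adjusted p of 0.0897, and took the adjusted p of Ccl5 in unstimulated Nfkb1[SS/AA] cells to 0.0538. It also ended the calls of Cxcl11 at 2 h in Elk1-/-Elk4-/- against Map3k8[D270A] cells (0.0827), of Cxcl10 at 0.5 h against 0 h in Nfkb1[SS/AA] cells (0.0523), and of Cxcl9 at 1 h against 0 h in Map3k8[D270A] cells (0.0839), and added that of the Cxcl9 response at 2 h in Elk1-/-Elk4-/- cells (adjusted p = 0.0045). Leaving out each replicate in turn gave 0 to 1 calls for Map3k8[D270A] and 1 to 4 for Nfkb1[SS/AA] cells against WT. The call for Map3k8[D270A] was Cxcl9 at 1 h without its replicate 2 or 6, up to 1.08. With Map3k8[D270A] replicates 1 to 3 against WT replicates 4 to 6 there was 1 call, Cxcl9 at 2 h, but these sets were chosen with the values known, so it supports nothing. Without Nfkb1[SS/AA] replicates 4 and 6, an alternative added after the data were seen, 1 call was left. The cause of these shifts was not tested, beyond the thresholds themselves and the libraries named. Neither filter nor the variance trend changed a call of a member. Centring the libraries took Ccl5 in unstimulated Nfkb1[SS/AA] cells to 0.9997. The replicate block as a fixed term changed no call, and as a random term it changed 1, Cxcl10 with RSKi47 against Map3k8[D270A] at 0.5 h, at 0.96. In the other arms not every pair of libraries with the same number had a correlation over 0.1. It was so in 34 of 36 pairs in Map3k8[D270A], 20 of 24 in Elk1-/-Elk4-/-, 20 of 21 in RSKi47, and 18 of 48 in PD0325901 cells. The median in Map3k8[D270A] cells, 0.425, was no lower than that in Nfkb1[SS/AA] cells, 0.401. The main fit took no account of such pairs in any arm. With DMSO as the baseline of PD0325901 no call changed. Nor did any with its LPS replicates averaged in the pairs 1 and 4, 2 and 5, and 3 and 6. Depth is unknown, and low levels of Cxcl9 and Cxcl11 before 2 h limit what can be seen there.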
